A study of Mus musculus with 4 samples.

Results

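Lefty-high cells are the mouse embryonic stem cells (mESC) that carried most transcripts of Lefty1 and Lefty2 in each of 4 single-cell libraries. A cell belonged to the class when it passed the cell filter, ranked in the highest 5% of its library by Lefty1 and Lefty2 transcripts over all transcripts, and held at least 2 Lefty transcripts. Transcripts were counted as unique molecular identifiers (UMIs). The rule selected 1597 of 31989 kept cells, with 405, 425, 394 and 373 members in libraries 1 to 4. The comparison cells were the 4098, 3541, 5066 and 5119 kept cells of the same libraries in which no Lefty UMI was found. The remaining 12568 kept cells lay between the classes.

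The libraries come from mESC of the male E14tg2a.4 line. The labels describe 2 WT replicates of that line and 2 replicates of an Srrm2 heterozygous knockout (Srrm2 hKO), the SIGTR gene-trap line CG0630, whose trap interrupts 1 copy of the gene for a splicing factor. The knockout is thus a single derived line, and its lesion is constitutive. All cells were kept on gelatin in GMEM with the cytokine LIF. The labels then give 24 or 72 h in serum-free ESGRO medium with LIF without saying which applied to which sample, whereas the study's methods give the single-cell cultures a different time from either, so the length of this step is uncertain. The 4 libraries share 1 deposited matrix. Barcodes there end in a number for the library, which no source used here matches to a sample. No comparison of WT with Srrm2 hKO was therefore made, and each value below belongs to a numbered library.

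Lefty1 and Lefty2 encode secreted proteins of the TGF-β superfamily that block Nodal signalling. Nodal binds activin receptors together with the coreceptor Tdgf1 (Cripto), and the receptors phosphorylate Smad2 and Smad3, which act in the nucleus with Smad4 and partners such as Foxh1. Nodal itself and both Lefty genes are targets of this route, so that the pathway induces its own antagonists. In the embryo the loop limits Nodal activity in the epiblast and, later, on the left side of the body. In mESC, Lefty transcripts are known to vary from cell to cell.

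Both genes lie on chromosome 1 of the GRCm38 (mm10) assembly on the plus strand, Lefty2 at chr1:180893108-180899103 and Lefty1 at chr1:180935022-180938400. The reading frames of the pair are alike, which bears on whether their transcripts can be told apart. Of 1107 aligned coding bases, 1017 (91.9%) were identical, with a longest shared run of 140 bases. The untranslated ends that follow differ far more. They are 425 bases long in Lefty1 and 1290 in Lefty2, and the longest run of identical bases in their alignment is 7 bases. Runs shared at other positions were not searched. By this alignment, a read from either 3′ end is easier to assign to its own gene than a read from inside the frame.

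Members had a similar depth to the comparison cells in libraries 1 and 3 and a lower one in libraries 2 and 4. They had a median of 17566, 19644, 18906 and 19536 UMIs in libraries 1 to 4 and comparison cells 17653.5, 21674, 18667.5 and 21254. The mitochondrial share had a median of 3.61 to 5.45% in members and 3.46 to 5.35% in comparison cells. Cells with more than 2 times the median UMI count of their library, among which doublets may be found, made up 4.44, 0.706, 9.14 and 1.07% of members and 3.10, 1.86, 3.77 and 3.20% of comparison cells. Barcode sequences occurring in more than 1 library numbered 160 over all barcodes and 105 over kept cells. Of the latter kind, 9 members carried a sequence.

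Lefty UMIs were found in many more cells than the members. A Lefty UMI was found in 49.5, 58.4, 35.8 and 31.4% of kept cells in libraries 1 to 4. After every cell had been thinned to 5000 UMIs the shares were 24.0, 32.2, 16.8 and 14.6%. Even (Poisson) sampling at the same mean gives a UMI in 32.1, 47.8, 27.0 and 22.9% of cells, so the UMIs were gathered in fewer cells than that. The variance of the thinned counts was accordingly 2.09, 2.67, 3.33 and 2.74 times their mean. Members held 34.4, 30.6, 51.7 and 47.7% of all Lefty UMIs with 4.69, 4.24, 5.09 and 4.36% of all UMIs, shares that the rule itself shapes. No cell class known to lack Lefty transcription was used as a reference, so how many cells held a Lefty UMI from free RNA was not tested.

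The level at which the rule divided the cells differed between libraries, since it is a rank. It stood at 335, 575, 305 and 275 Lefty UMIs per 1000000 UMIs (CPM). At that edge the last cell inside in library 1 had 4 Lefty UMIs of 11929 and the first outside 6 of 17905. In library 2 these were 5 of 8701 and 13 of 22654, in library 3 11 of 36053 and 4 of 13180, and in library 4 6 of 21787 and 4 of 14541. A median member carried 9, 16, 11 and 9 Lefty UMIs, and the highest 85, 61, 76 and 38. Membership near the edge thus rested on single UMIs.

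Within members, Lefty1 gave more UMIs than Lefty2 in every library. These counts come from transcript ends and are not divided by length. Lefty1 stood at 436, 548, 573 and 351 CPM and Lefty2 at 126, 320, 78.2 and 169 CPM in libraries 1 to 4. Lefty2 thus made up 22.4, 36.8, 12 and 32.5% of the Lefty UMIs of members, lowest in libraries 1 and 3. No Lefty2 UMI was seen in 22.7, 4, 39.8 and 18.5% of members, whereas at most 4.83% lacked Lefty1.

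These levels chose the cells, so the UMIs of each cell were also divided at random into 2 equal sets, with the choice made on 1 set and the level read in the other. In the unused set Lefty1 stood at 362, 473, 505 and 293 CPM in the chosen cells. Cells with no Lefty UMI in the choosing set had 21.3, 14.0, 12.3 and 6.84 CPM. The folds were 16.99 (95% interval 15.7 to 18.4), 33.9 (31.1 to 36.9), 41.2 (37.9 to 44.8) and 42.8 (38.3 to 47.9). For Lefty2 the folds were 9.04 (7.88 to 10.4), 17.2 (15.7 to 18.8), 14.4 (12.2 to 17.1) and 19.8 (17.3 to 22.5). Chosen and comparison cells were thus apart in UMIs that had no part in the choice, and the smallest separation was in library 1. All intervals cover counting error only, and not the variation between cells or between cultures.

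**Figure D1:**
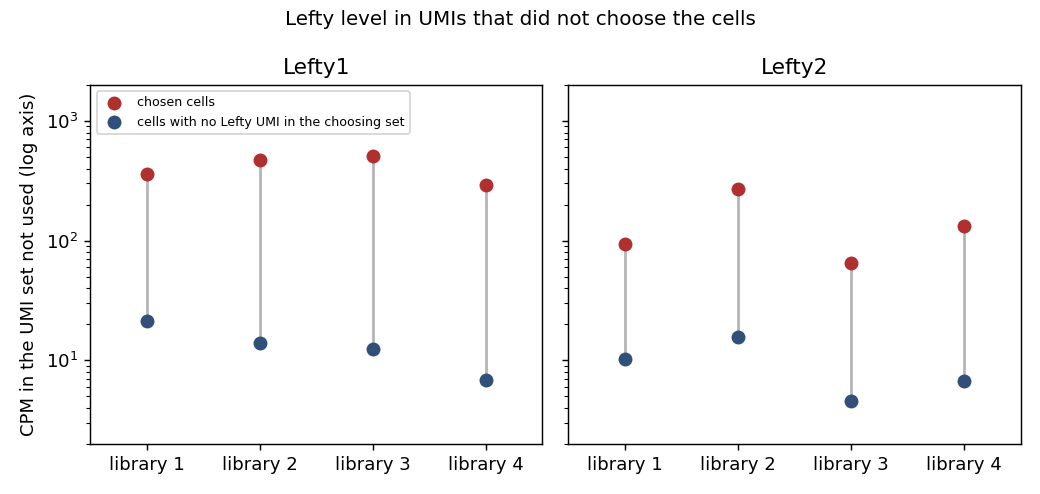
Level of Lefty1 (left) and Lefty2 (right) in CPM on a log axis, read in the UMI set that did not choose the cells, for the chosen cells (red) and for cells without a Lefty UMI in the choosing set (blue) of each library. Red points lie between 293 and 505 CPM for Lefty1, against 6.84 to 21.3 CPM for blue points.

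The pair were also read against each other. Cells in the highest 5% for Lefty1 alone had 72.8, 206, 58.8 and 106 CPM of Lefty2, 6.72 (6.05 to 7.45), 9.21 (8.66 to 9.79), 12.5 (11.1 to 14.2) and 11.6 (10.6 to 12.6) times the level of cells lacking Lefty1 UMIs. Cells chosen by Lefty2 alone had 186, 277, 254 and 174 CPM of Lefty1, which was 5.06 (4.76 to 5.38), 11.3 (10.7 to 11.96), 7.45 (7.05 to 7.87) and 12.3 (11.5 to 13.2) times that of cells lacking Lefty2. Each gene therefore marked cells with more of the other in every library. The choices still differed, as 71.8 to 90.1% of the Lefty1 choice but only 45.9 to 56.4% of the Lefty2 choice were members.

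To ask which other transcripts go with Lefty, UMIs were summed over members and over comparison cells of each library and expressed as CPM, with Lefty1 and Lefty2 left out of the totals. A gene was measured when at least 50 UMIs were expected in members of every library, which held for 7825 genes. It was called when its level differed at least 1.5-fold in 1 direction in all 4 libraries. There were 5 genes called higher (0.0639% of those measured), of which Pmepa1, Notch3, Taok3 and Bcar3 are described here. There were 6 called lower (0.0767%), namely Bmp4, Gbx2, Etv4, Spry4, Ddah1 and Acta2. A looser reading, in which the counting interval excluded no difference in 1 direction in every library, gave 91 higher (1.16%) and 163 lower (2.08%). Choosing cells by Lefty2 alone left 1 higher and 0 lower, and none of the genes named here kept its call in that setting. No p-value is given, because the libraries are not replicates of a known group and cells of a library are not replicates.

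Pmepa1 encodes a membrane protein that is induced by TGF-β family signalling and sequesters Smad2 and Smad3. It stood at 58.1, 25.8, 79.6 and 31.0 CPM in members against 29.7, 14.5, 36.2 and 13.5 CPM in comparison cells. The log2 ratios were 0.97 (0.82 to 1.11), 0.83 (0.61 to 1.04), 1.14 (1.02 to 1.26) and 1.20 (1.00 to 1.40). Members were higher within each library, although members of libraries 2 and 4 lay near or below the comparison cells of libraries 1 and 3. Pmepa1 was not called for the highest 2% of cells (median log2 ratio 1.33), against all other kept cells (0.89) or with counts thinned to 5000 UMIs (0.79). With cells chosen on 1 random set of UMIs and read in the other, it lost its call 1 way (1.08).

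Notch3, a receptor of the Notch pathway, had 14.2, 14.5, 22.6 and 21.5 CPM in members and 6.23, 8.92, 8.74 and 10.9 CPM in comparison cells. All 4 member levels were above all 4 comparison levels, with log2 ratios of 1.19, 0.70, 1.37 and 0.99. It fell short of a call in several alternative settings, among them choosing by Lefty1 alone (median log2 ratio 1.21), the highest 10% of cells (0.80), all other kept cells as the comparison (0.92), and leaving out cells with more than 2 times the median UMI count (1.04) or high in keratin and contractile genes (0.79). Nor was Notch3 called for the highest 2% of cells (1.36) or with counts thinned to 5000 UMIs (0.78). In either random set of UMIs it was not called (0.83 and 1.10). Taok3, a protein kinase, had 29.5, 20.5, 31.5 and 20.3 CPM against 18.4, 12.2, 15.5 and 11.5 CPM, and Bcar3, an adaptor in adhesion signalling, 16.4, 12.6, 14.5 and 12.5 CPM against 9.55, 7.28, 7.30 and 7.71 CPM. These last differences were close to the fold required, with smallest log2 ratios of 0.69 for Taok3 and 0.70 for Bcar3, and the intervals of both reached below it in libraries 1, 2 and 4. Neither gene was called for the highest 2% of cells, with counts thinned to 5000 UMIs or in either random set of UMIs.

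**Figure D2:**
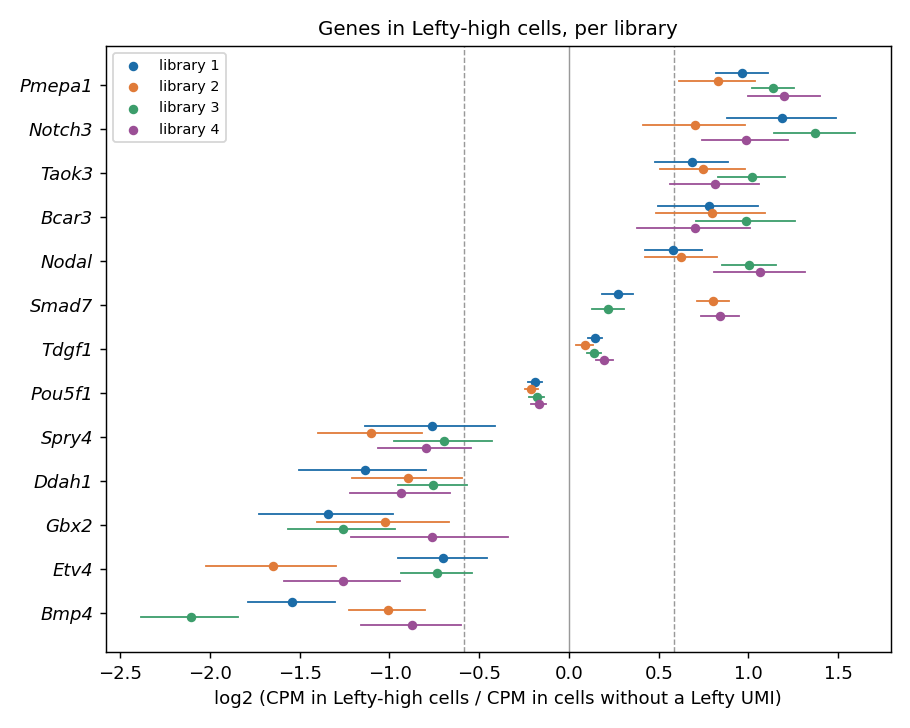
Log2 ratio of the level in Lefty-high cells to that in cells without a Lefty UMI, for the called genes described in the text other than Acta2 and for Nodal, Smad7, Tdgf1 and Pou5f1, with a point per library and lines for 95% counting intervals. Dashed lines mark a 1.5-fold difference, which Nodal just missed in library 1 (log2 ratio 0.58), while the 4 Pou5f1 points lie together from -0.21 to -0.17.

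Genes starting within 500 kb of either Lefty gene were also read. Tmem63a, the gene for a membrane channel protein, begins 7.32 kb after the start of Lefty1 on the same strand, and had too few UMIs to be measured. It had 57, 45, 104 and 71 UMIs in members, or 7.29, 5.31, 11.9 and 9.36 CPM, against 1.84, 1.43, 1.47 and 1.65 CPM in comparison cells. Its log2 ratios of 1.99 (1.52 to 2.44), 1.89 (1.36 to 2.40), 3.01 (2.64 to 3.38) and 2.503 (2.09 to 2.90) were all beyond counting error.

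Ephx1, 85.9 kb from the start of Lefty1 and on the minus strand, had log2 ratios of 0.57, 1.41, 0.54 and 2.06 from 17 to 38 UMIs, with intervals that included no difference in libraries 1 and 3. Sde2, 42.0 kb on the far side of Lefty2, had log2 ratios of 0.03, 0.08, 0.01 and 0.09 at 80.1 to 107 CPM. H3f3a, a histone gene, had 0.08, 0.09, 0.16 and 0.09, and Nvl, 209 kb beyond Lefty1, -0.07, -0.05, -0.02 and -0.07. Whether a read in Tmem63a came from a transcript that began at Lefty1 was not tested.

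Of the Nodal ligands and processing genes, Nodal itself was higher in members of each library. It had 48.4, 28.4, 48.4 and 19.4 CPM in members against 32.3, 18.4, 24.1 and 9.26 CPM in comparison cells. The log2 ratios were 0.58 (0.42 to 0.74), 0.63 (0.42 to 0.82), 1.00 (0.85 to 1.15) and 1.07 (0.81 to 1.32), so that Nodal missed the call by a narrow margin in library 1 and was called when library 1 was left out. Gdf3, a related ligand, had log2 ratios of -0.20, 0.16, -0.13 and 0.16. Of 7 genes in the list 2 were measured and 0 called. The median log2 ratio of 0.19 to 0.61, against -0.08 to 0.02 over all measured genes, is thus the midpoint of Nodal and Gdf3. Below the expected count, Inhbb had log2 ratios of -0.54, -0.02, -1.55 and -1.35. Pcsk6 had -0.32, 0.14, -1.12 and -0.88, and Furin 1.02, 0.001, -0.005 and 0.03.

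No receptor or transducer was called. Tdgf1, the coreceptor, was abundant in both classes, with 696, 482, 618 and 536 CPM in members and 630, 454, 560 and 467 CPM in comparison cells, and log2 ratios of 0.09 to 0.20. The receptor genes Acvr2b and Tgfbr1 had log2 ratios of 0.05 to 0.46 and of -0.08 to 0.19. Of 8 coreceptors and receptors 3 were measured and 0 called. Smad2 and Smad4, the measured genes of a list of 4 with Smad3 and Foxh1, had log2 ratios of -0.19 to -0.02 and of -0.30 to 0.23, without a common direction for Smad4. Smad3 and Foxh1 were below the expected count required. Smad3 had log2 ratios of 0.98, -0.05, 0.78 and -0.13 from 23, 25, 33 and 26 UMIs in members, and Foxh1 0.97, -0.76, 1.03 and 0.02 from 13, 15, 33 and 37.

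Among 8 inhibitors and feedback genes of the pathway, 5 were measured, and Pmepa1 was called higher and none lower. Smad7, which blocks the activated receptor, stood at 160, 138, 125 and 111 CPM in members against 132, 79.1, 107 and 61.7 CPM in comparison cells. Its log2 ratios were 0.27, 0.80, 0.22 and 0.84, past the counting interval in each library and past 1.5-fold in libraries 2 and 4. Skil, a Smad corepressor, had the reverse distribution, with 0.57, -0.08, 0.59 and 0.08. Fst, the gene for the activin antagonist follistatin, was not measured, and had log2 ratios of 1.64, -2.41, 1.76 and 0.21. Cer1, another secreted Nodal antagonist, had no UMI in members.

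Targets of Nodal in the primitive streak were rare in all cells, and none of the 7 was measured. Fgf8, a growth factor of the streak, had 12, 20, 112 and 151 UMIs and log2 ratios of 2.92, 0.81, 5.08 and 3.91. T (brachyury), a streak transcription factor, had log2 ratios of 3.24 in both libraries 3 and 4 from 77 and 44 UMIs. In libraries 1 and 2 it had only 5 and 6 UMIs and log2 ratios of 1.49 and -0.28. Eomes and Gsc had no common direction, from at most 23 and 15 UMIs in members. Their log2 ratios were 0.46, -1.09, 1.01 and -0.29 for Eomes and -0.30, 0.04, 1.42 and 1.56 for Gsc. Mixl1 and Foxa2 had at most 14 UMIs in the members of any library.

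Bmp4, the ligand of the other main branch of the superfamily, was lower in members. It stood at 18.7, 23.1, 13.3 and 14.8 CPM against 54.4, 46.5, 57.4 and 27.0 CPM, and no member level reached a comparison level, although within formative cells a difference beyond counting error was seen in library 3 only. The log2 ratios were -1.54 (-1.79 to -1.30), -1.01 (-1.22 to -0.80), -2.11 (-2.38 to -1.84) and -0.87 (-1.16 to -0.60). Bmp4 was not called for the highest 10% of cells (median log2 ratio -0.97). Of 10 genes of BMP ligand, receptors and targets, 6 were measured, with Bmp4 called lower and 0 higher. Id3, a direct target of BMP signalling, had log2 ratios of -0.31, -1.53, -1.32 and -1.31, whereas Id1 had 0.60, -2.12, -0.21 and -1.82 and Id2 0.38, -1.31, 0.62 and -1.21.

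The genes called lower also included members of the FGF and ERK feedback list, of which 10 of 12 were measured, 2 called lower and 0 higher. Etv4, an ETS transcription factor induced by FGF signalling, had 18.3, 7.90, 25.1 and 11.1 CPM in members against 29.7, 24.8, 41.8 and 26.5 CPM. Spry4, a feedback inhibitor of the same pathway, had 8.83, 12.4, 13.6 and 17.1 CPM against 15.004, 26.6, 22.0 and 29.8 CPM. The log2 ratios were -0.70, -1.65, -0.74 and -1.26 for Etv4 and -0.77, -1.10, -0.70 and -0.80 for Spry4. The intervals of Etv4 in libraries 1 and 3 and of Spry4 in libraries 1, 3 and 4 reached below the fold required. Spry4 was not called for the highest 2% or 10% of cells or for cells chosen by Lefty1 alone (median log2 ratios -0.94, -0.60 and -0.68). Neither was called with counts thinned to 5000 UMIs, nor was Etv4 against all other kept cells. With cells chosen on 1 random set of UMIs and read in the other, Spry4 lost its call both ways and Etv4 1 way. Spred1, another inhibitor of the pathway, had -0.36, -0.78, -0.25 and -0.53, short of the fold required but beyond counting error in every library. Etv5 had -0.32, -0.15, -0.43 and 0.02, Spry2 -0.32 to -0.10, and Dusp6 differed in sign, with 0.41, -0.91, 0.36 and -0.62. The median log2 ratio of the 10 measured genes was -0.12, -0.55, -0.21 and -0.46, beside 0.01, -0.07, 0.02 and -0.08 over all measured genes.

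Gbx2, a homeobox gene counted among targets of LIF and STAT3, was the only one of 7 measured genes of that list to be called, with 0 higher. Members had 8.06, 7.78, 11.1 and 6.20 CPM and comparison cells 20.4, 15.8, 26.5 and 10.5 CPM, for log2 ratios of -1.34, -1.02, -1.26 and -0.76. Gbx2 was not called for the highest 2% of cells (median log2 ratio -1.57), in either random set of UMIs (-0.98 and -1.03) or with CPM averaged over cells (-1.06). Socs3, the feedback inhibitor of STAT3, had log2 ratios of -0.50 to -0.17 and was not called. Ddah1, an enzyme that breaks down methylated arginine, had 9.08, 11.1, 26.9 and 14.5 CPM against 19.99, 20.6, 45.6 and 27.7 CPM. It was not called with counts thinned to 5000 UMIs (median log2 ratio -0.67).

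Acta2, smooth muscle actin, was lower in members and most of its UMIs there came from library 3. It had 0, 2, 258 and 15 UMIs in members, against 8.75, 6.69, 170 and 15.01 CPM in comparison cells. The level was at least 22.8-fold lower in library 1, taking 3 counts as the floor for the members, and the log2 ratios in libraries 2 to 4 were -4.83, -2.53 and -2.92. When the 10% of cells highest in keratin and contractile genes was left out, an alternative setting, Acta2 was no longer lower (median log2 ratio 0.017). Acta2 is itself on the list that chose those cells, so that setting removes cells high in Acta2 by construction. Acta2 was also not called against all other kept cells (-3.26), for cells chosen by Lefty1 alone (-3.47) or for the highest 2%. Nor was it called in either random set of UMIs (-3.51 and -3.78). Over the 8 keratin and contractile genes, the summed level was 275, 148, 1124 and 315 CPM in members and 228, 271, 1458 and 674 CPM in comparison cells, and of 5 measured genes Acta2 alone was called.

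The measured Wnt feedback genes, 2 of 9, gave no common difference, and 0 were called. Lef1, a gene of that list, was called lower when library 1 was left out. Pou5f1, which maintains pluripotency, stood at 761, 710, 596 and 696 CPM in members against 869, 821, 676 and 783 CPM, with log2 ratios of -0.19, -0.21, -0.18 and -0.17, small but alike in all libraries. Sall4 had -0.29 to -0.19. Sox2 differed in sign, with -0.19, 0.41, -0.49 and 0.45. Of 3 core pluripotency genes 3 were measured and 0 called.

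The naive and formative panels showed the same alternation. Naive genes mark the state of the preimplantation epiblast, and formative genes that of the epiblast just after implantation. The 10 naive genes summed to 1606, 1804, 861 and 1125 CPM in members against 1967, 1402, 1493 and 842 CPM in comparison cells, for log2 ratios of -0.29 (-0.32 to -0.27), 0.36 (0.34 to 0.39), -0.79 (-0.83 to -0.76) and 0.42 (0.39 to 0.45). The 9 formative genes without Utf1 summed to 307, 436, 475 and 815 CPM against 202, 924, 340 and 1242 CPM. Their log2 ratios were 0.60 (0.54 to 0.66), -1.08 (-1.13 to -1.04), 0.48 (0.44 to 0.53) and -0.61 (-0.64 to -0.57). With Utf1 included, the 10 formative genes summed to 864, 831, 992 and 1273 CPM in members against 809, 1465, 902 and 1804 CPM. The directions were then the same and the fold differences smaller. By these sums members were less naive and more formative than comparison cells in libraries 1 and 3, and the reverse in libraries 2 and 4.

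**Figure D3:**
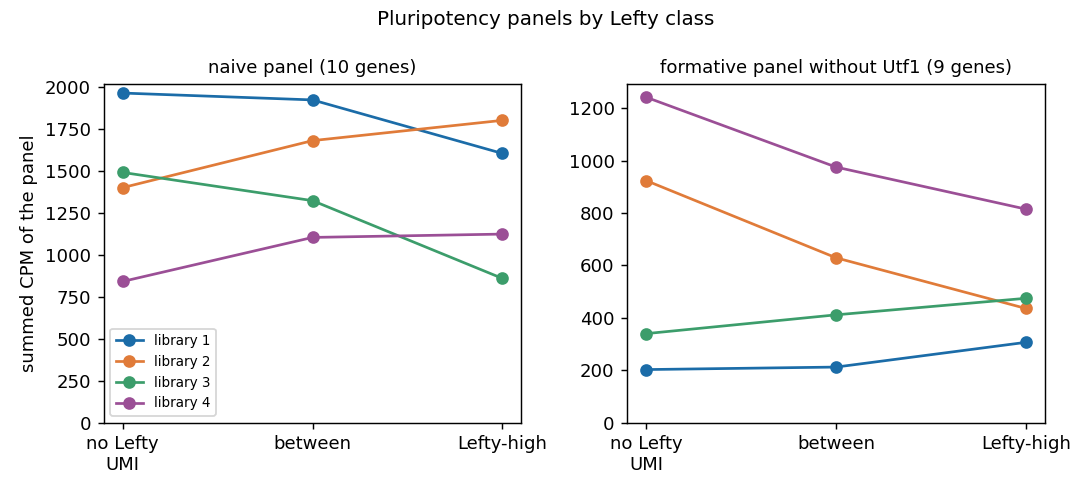
Summed CPM of the naive panel (left) and of the formative panel without Utf1 (right) in cells without a Lefty UMI, cells between the classes and Lefty-high cells, with a line per library. Formative levels of the 4 libraries run from 202 to 1242 CPM in cells without a Lefty UMI and from 307 to 815 CPM in Lefty-high cells.

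Single naive genes followed their panel, and formative genes did so less evenly. All 8 measured naive genes were below comparison cells in libraries 1 and 3, and in libraries 2 and 4 8 and 7 of them were above. Over all 7825 measured genes, 4045, 2812, 4261 and 2702 were above comparison cells in libraries 1 to 4, so that genes as a whole leaned lower in libraries 2 and 4. Klf2, a naive transcription factor, had log2 ratios of -0.24, 0.56, -0.86 and 0.69, and Esrrb -0.26, 0.67, -0.81 and 0.87. Of 7 measured formative genes, 6, 0, 4 and 1 were above comparison cells in libraries 1 to 4, and in library 3, where that share was near the one over all genes, their median log2 ratio was 0.05. There Otx2 had -0.37 and Dnmt3a -0.33, against 1.34 for Zic2. Pou3f1, a formative transcription factor, had 35.2, 27.8, 120 and 106 CPM in members against 14.1, 112, 46.3 and 186 CPM. Dnmt3b, a DNA methyltransferase that rises in the formative state, had 130, 195, 178 and 366 CPM against 75.5, 508, 137 and 651 CPM. Members of different libraries were accordingly closer together in Dnmt3b, over which they ranged 2.82-fold against 8.62-fold for comparison cells. The range was not narrower throughout, with 6.64-fold against 5.08-fold for Otx2 and 2.62-fold against 1.66-fold for Zfp42.

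Genes with such an alternation could be counted. At least 1.5-fold higher in libraries 1 and 3 and lower in libraries 2 and 4 were 9 genes (0.115% of those measured), Pou3f1 among them, and the opposite pattern was met by 0 genes (0.0%). Across all measured genes, the log2 ratios of libraries 1 and 3 had a Pearson correlation of 0.675 (n = 7824 genes), and those of libraries 2 and 4 of 0.749 (n = 7825). The other pairs of libraries gave -0.22 to -0.11. Genes are not independent, and these coefficients describe the libraries only. Libraries 1 and 3 also had the higher naive levels among comparison cells.

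Position on this axis was then given to each cell as the formative share of its formative and naive UMIs, again without Utf1. The median share was 7.69, 14.7, 40.0 and 38.5% in members against 7.27, 25.7, 12.8 and 71.4% in comparison cells. Members with a share of 50% or more made up 16.8, 8.47, 40.4 and 39.9% of all members, against 3.07, 31.7, 13.9 and 61.3% of comparison cells. The naive end, under 20%, held 76.0, 63.5, 37.3 and 28.7% of members. Lefty-high cells were therefore found at both ends in every library and were not a single point on the axis.

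Lefty level along the axis ran in opposite directions. In library 1 it was 69.3 CPM in the most naive bin, between 134 and 269 CPM in bins at 50% and above, and in library 3 it went from 37.9 to 142 CPM between the first and the last of the 10 bins. In library 2 it fell from 197 to 22.0 CPM and in library 4 from 97.9 to 24.0 CPM. Members correspondingly made up 4.31 and 16.3% of the first and last bins in library 1 and 2.95 and 13.9% in library 3, but 10.1 and 0.316% in library 2 and 10.3 and 2.48% in library 4. The last bin of library 1 held 49 cells, and the counting intervals there are wide.

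The make-up of Lefty transcripts, in contrast, moved 1 way in all libraries. Lefty2 was 30.4, 46.5, 23.2 and 44.97% of Lefty UMIs in the most naive bin and 16.9, 31.8, 6.92 and 25.5% in the most formative. The exact intervals of the first bin (29.4 to 31.5, 45.2 to 47.8, 21.3 to 25.1 and 41.3 to 48.7%) did not meet those of the last (11.2 to 23.9, 26.6 to 37.3, 4.81 to 9.58 and 22.6 to 28.6%). The course between was uneven in library 1, where the share fell to 11.5% in the bin from 60 to 70%. Lefty1 thus predominated most among formative cells, whichever way the total level went.

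**Figure D4:**
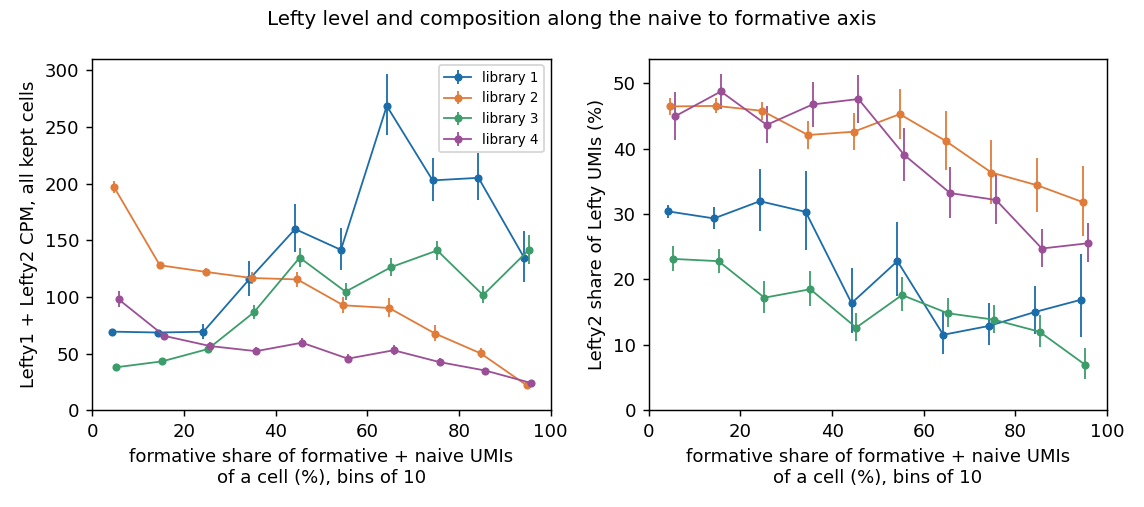
Lefty1 plus Lefty2 CPM over all kept cells (left) and the Lefty2 share of Lefty UMIs (right) in 10 bins of the formative share of formative and naive UMIs, with a line per library and 95% counting intervals. The total goes up from the first to the last bin in libraries 1 and 3 and down in libraries 2 and 4, while the Lefty2 share is lower in the last bin than in the first in all 4.

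Gene differences were read again within each end of the axis. Pmepa1 had log2 ratios of 0.56, 0.51, 0.50 and 0.25 at the naive end and 1.54, 1.16, 0.68 and 1.75 at the formative end. For Nodal these were 0.47, 0.29, 0.54 and -0.04 against 0.86, 1.14, 1.60 and 1.82. Nodal and Pmepa1 were therefore higher in members than in comparison cells of the formative end in all 4 libraries, and of the naive end in libraries 1 to 3, where the counting intervals excluded no difference. Smad7 was higher in members beyond counting error at both ends in all 4 libraries. Skil, which differed in sign over the whole classes, had log2 ratios of 0.17, 0.33, 0.35 and 0.44 at the naive end. At the formative end it had 0.18, 0.19, 0.01 and 0.19.

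Fgf8 was seen in members of the formative end, with 10, 15, 79 and 143 UMIs, and hardly in those of the naive end, with 1, 4, 3 and 0.

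Bmp4 was lower in members of the naive end, with log2 ratios of -1.26, -1.40, -1.83 and -1.65. At the formative end only library 3 showed a difference beyond counting error, with -2.65 (-3.37 to -2.01), while libraries 1, 2 and 4 had -0.99 (-2.59 to 0.36), 0.11 (-1.22 to 1.17) and 0.04 (-0.65 to 0.65) from 6, 7 and 22 UMIs in members. Etv4 was lower at both ends, with -0.96, -1.33, -0.95 and -1.17 at the naive and -0.93, -1.84, -0.60 and -1.02 at the formative end. Acta2 was also lower beyond counting error at both ends in all 4 libraries. This rested on 0, 1, 8 and 2 UMIs in members of the naive end and 0, 0, 156 and 12 in those of the formative end. Several other called genes held less evenly. Gbx2 and Ddah1 were lower beyond counting error in all 4 libraries at the naive end, but at the formative end in libraries 1 and 3 only. Gbx2 had 0.48 (-0.86 to 1.55) at the formative end of library 2. Spry4 was lower beyond counting error in libraries 1, 2 and 4 at the naive end and in libraries 2 to 4 at the formative end. Taok3 was higher beyond it in libraries 2 to 4 and in libraries 1, 3 and 4, Notch3 in libraries 2 and 3 and in all 4, and Bcar3 in all 4 and in libraries 2 to 4, at the naive and the formative end respectively. Members of the formative end in library 2 numbered 36, the smallest of these groups.

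Markers of other cell types were low in members. None of the 8 primitive endoderm, 8 visceral endoderm, 6 trophectoderm and 7 fibroblast genes was measured. Summed levels in members were 10.3 to 17.9 CPM for primitive endoderm, 7.31 to 9.59 CPM for visceral endoderm, 5.63 to 8.21 CPM for trophectoderm and 3.20 to 5.54 CPM for fibroblast genes. In comparison cells these sums were 13.5 to 27.5, 7.85 to 9.39, 3.29 to 10.5 and 2.84 to 16.4 CPM. The defining genes Pdgfra of primitive endoderm and Cer1 of visceral endoderm had no UMI in members, and Sox17 and Gata6 stayed at or below 0.132 CPM. Genes of cells like those of the 2-cell embryo summed to at most 0.24 CPM in members.

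Cell cycle, stress and splicing lists gave no called gene. Of 14 S phase and 14 G2/M genes all were measured and 0 called, with median log2 ratios of -0.09 to 0.01 and of -0.09 to 0.15. The immediate early and stress list had 4 measured genes and 0 called. Srrm2 itself had 394, 492, 247 and 319 CPM in members against 388, 550, 237 and 365 CPM, for log2 ratios of 0.02, -0.16, 0.06 and -0.19. Malat1, a nuclear RNA, was somewhat higher in members of each library, with log2 ratios of 0.28, 0.22, 0.47 and 0.08.

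Transcripts of neighbouring pluripotent subsets were also compared. Dppa3, a gene of naive and germline cells, was detected in 19.3, 53.2, 22.3 and 45.6% of members and in 19.5, 41.7, 35.6 and 36.7% of comparison cells. Tbx3, a naive factor, was detected in 56.3, 17.6, 21.8 and 7.24% against 62.2, 12.2, 38.7 and 5.22%. Trh, which encodes a hormone precursor, had 183, 488, 70.8 and 299 CPM in members against 134, 369, 62.4 and 162 CPM, past the counting interval in each library and not called. Tbx3 followed the alternation of the naive panel between libraries, as did Dppa3 except in library 1, where its shares nearly coincided, and Trh did not.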

How the data were processed

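Libraries were made by the authors with Chromium Single Cell 3′ v3 chemistry. The authors aligned and counted them with Cell Ranger 6.1.2 on mm10 (the version stands in the deposited matrix) and merged the libraries with its aggregation step, which lowers the deeper libraries to a common read depth. The deposited matrix holds the UMI counts after this step, for 32285 genes and 41142 barcodes and 744302782 UMIs. Cells were kept, per library, when UMIs and detected genes were each at or above the mean minus 1 SD and the mitochondrial share was at most 10%, which left 8118, 8514, 7893 and 7464 cells.

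Libraries could not be tied to the labelled samples, so the planned edgeR test of Srrm2 hKO against WT was not made, and no SD or p-value over libraries was computed. Counts were summed per class and library and given as CPM without Lefty1 and Lefty2. Ratios have exact conditional, levels exact Poisson and shares exact (Clopper-Pearson) 95% intervals. A count of 0 was bounded by 3 counts, which is 0.0150 to 0.0180 CPM over the kept cells of a library. Called genes needed a 1.5-fold difference in 1 direction in every library and an expected count of at least 50. No doublet caller was run. Cells with more than 2 times the median UMI count were left out in an alternative instead.

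The genes named are those of 24 lists (185 of 186 symbols matched), the called genes up to 15 per direction with the largest least ratio, and genes starting within 500 kb of either Lefty gene, some of which are not reported here. The members, the lists and the tests were chosen with earlier results of these data known. Positions and transcripts came from GENCODE M21 on GRCm38. Python 3.11.15 was used with numpy 2.4.6, scipy 1.17.1, pandas 2.3.3 and Biopython 1.88. Alternatives covered the fold, the filters on genes and cells, the scaling, the share of cells taken, the choosing gene, thinning, a random division of the UMIs, depth, keratin-high cells, position on the naive to formative axis and leaving out each library. The call by counting interval alone was added after seeing the data.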

Additional observations from a re-analysis of the deposited data

How the results depend on the processing

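No paired analysis was possible for Srrm2 hKO against WT because the libraries carry no replicate number that the labels share. The ratios of members to comparison cells are each taken within a library. No test over the libraries was made of them, since the libraries are not replicates of a known group. The 5 higher and 6 lower genes became 1 and 1 at a 2-fold threshold, 5 and 11 at an expected count of at least 20, 85 and 51 with no filter on low counts, and 91 and 163 by counting interval alone. Fewer genes were called higher when members were the highest 2% (638 cells, 2 higher) or 10% (3189 cells, 3 higher), when all other kept cells were the comparison (2), with classes from counts thinned to 5000 UMIs (1), and without the 10% of cells highest in keratin and contractile genes (3). Leaving out cells with more than 2 times the median UMI count gave 4 higher, without Notch3, and 7 lower. Choosing on a random 0.5 of the UMIs and reading in the rest gave 2 higher and 3 lower, and when exchanged 1 and 3. Choosing by Lefty2 alone gave 1 and 0, and a formative panel log2 ratio of 0.017 in library 1 whose interval no longer excluded 0. Leaving out 1 library at a time gave 6 to 7 higher and 6 to 11 lower, the 11 without library 1. Cells standardised to equal bins of the formative share gave 7 higher and 11 lower, and by construction brought the panels towards 0, with naive log2 ratios of -0.055 in library 2 and -0.070 in library 4 and a formative log2 ratio of -0.21 in library 3, all of reversed sign. Acta2 also changed sign (median log2 ratio 0.017) without the keratin-high cells, which were chosen by a list that holds Acta2, and could not be given for the highest 2%, where it had no UMI in at least 2 libraries. An expected count of at least 50 was still required for the highest 2% (5291 genes measured) and in the random sets (5901 and 5924). A gene below it could not be called whatever its ratio. Not called for the highest 2% were Pmepa1, Notch3, Taok3, Bcar3, Gbx2 and Spry4. Their median log2 ratios there were 1.33, 1.36, 1.15, 0.88, -1.57 and -0.94, each larger in size than in the main setting. Which losses came from the expected count was not tested, nor was the cause of the other changes. Low counts limit Fgf8, T and Tmem63a, for which no call could be made at the expected count required.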
